A study of Mus musculus with 12 samples.

Results

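The semaphorins, plexins and neuropilins are the ligands and receptors of the semaphorin guidance system. All genes named Sema followed by a class number and a letter, Plxn followed by a class letter and a number, or Nrp1 or Nrp2 were taken from the expression table by name, with no use of their values. The family itself was chosen with earlier results of these data known. The names matched 31 of 57010 genes, of which 20 were semaphorins, 9 were plexins and 2 were neuropilins. A low-count filter left 28 of the 31 for testing among 16502 genes, and Sema3g, Sema4f and Plxnb3 did not pass it.

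Semaphorins are secreted or membrane-bound proteins that share a sema domain and steer growing axons, migrating neurons and vessels. Class 3 semaphorins are secreted, and most of them bind a neuropilin, which recruits a class A plexin as the signalling subunit. Sema3e is the exception and binds Plxnd1 directly. Classes 4 to 6 cross the membrane and act mainly on plexins of classes B and A, while Sema7a is anchored to the membrane by a lipid and binds Plxnc1.

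The RNA came from NE-4C cells, an immortalized neural progenitor line made from the brain of a mouse embryo lacking functional Trp53, a background that all groups share. WT is the unedited line, and KO is 1 clonal line in which CRISPR/Cas9 removed exon 4 of Faf2, the gene of an adaptor protein of endoplasmic reticulum-associated degradation. NO cells were untreated and collected on day 0, and RA cells received 1 µM all-trans retinoic acid for 24 h and were collected on day 3. Each of the 4 groups (WT NO, WT RA, KO NO and KO RA) had 3 libraries from separate passages, so treatment and time in culture cannot be told apart, and neither can the deletion and other properties of the KO clone.

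The libraries held between 17370069 and 30738717 estimated counts. Replicate 3 of KO RA stood apart from all others: its TMM scaling factor was 0.394 against 0.872 to 1.28, mitochondrial transcripts took 23.5% of its counts against 9.1% to 17.7%, and its genes deviated from their group by a median of 0.987 on the log2 scale against 0.159 to 0.559. Calls are therefore given with and without this library, and leaving it out also changes comparisons that do not contain it, because all groups share 1 estimate of the spread. Faf2 itself measured 36 to 50 CPM in WT NO and 21 to 25.4 CPM in KO NO, but 35.1 to 49.1 CPM in WT RA and 34.3 to 36.1 CPM in replicates 1 and 2 of KO RA and 18.7 CPM in its replicate 3. A count over the whole gene includes exons outside the deletion and does not check the genotype. Levels are in CPM, counts scaled to a common library size after TMM scaling. The deposited values behave as if corrected for transcript length, which is not stated in the sources used here, and comparisons of levels between genes rest on that. The floor used here, 3 estimated counts, corresponded to 0.0838 to 0.297 CPM.

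In untreated WT cells the receptors were led by plexins of class B and A and the ligands by class 3 and class 4 semaphorins. Plxnb2, a receptor of class 4 semaphorins, measured 40.1, 38.4 and 37 CPM and made up 45% ± 2.37 (SD, n = 3) of the summed plexin level. Plxna1, a signalling partner of neuropilins, followed at 17.4 ± 2.45 CPM, and its range overlapped neither that of Plxnb2 nor that of Plxna3 (10.3 ± 0.639 CPM). From Plxna3 down to Plxnb1 (4.44 ± 1.44 CPM), neighbouring receptors in this order, with Plxnd1, Plxnc1 and Nrp2 between them, had overlapping ranges. Plxna2 (0.497 ± 0.14 CPM), Nrp1 (0.273 ± 0.0385 CPM) and Plxna4 (0.0466 ± 0.0238 CPM) formed the low end without overlap, and Plxnb3 had no count in the 3 libraries.

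Sema3a, a collapsing factor for axon growth cones, was the highest ligand of WT NO cells on average at 13.2, 12.6 and 14 CPM. Its range overlapped that of Sema3f (11.7 ± 3.97 CPM), a ligand of Nrp2, and every semaphorin overlapped its neighbour in the order of levels down to Sema3d (1.41 ± 0.27 CPM). Sema4f, Sema4a and Sema3g lay below, at 0.233 ± 0.106, 0.126 ± 0.159 and 0.0305 ± 0.0529 CPM. Sema6a, a transmembrane ligand of Plxna2 and Plxna4, was uneven among the WT NO libraries, with 26.1 CPM in replicate 3 against 3.52 and 4.44 CPM in the others. The plot of all 31 genes by library shows these orders for each group.

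**Figure D1:**
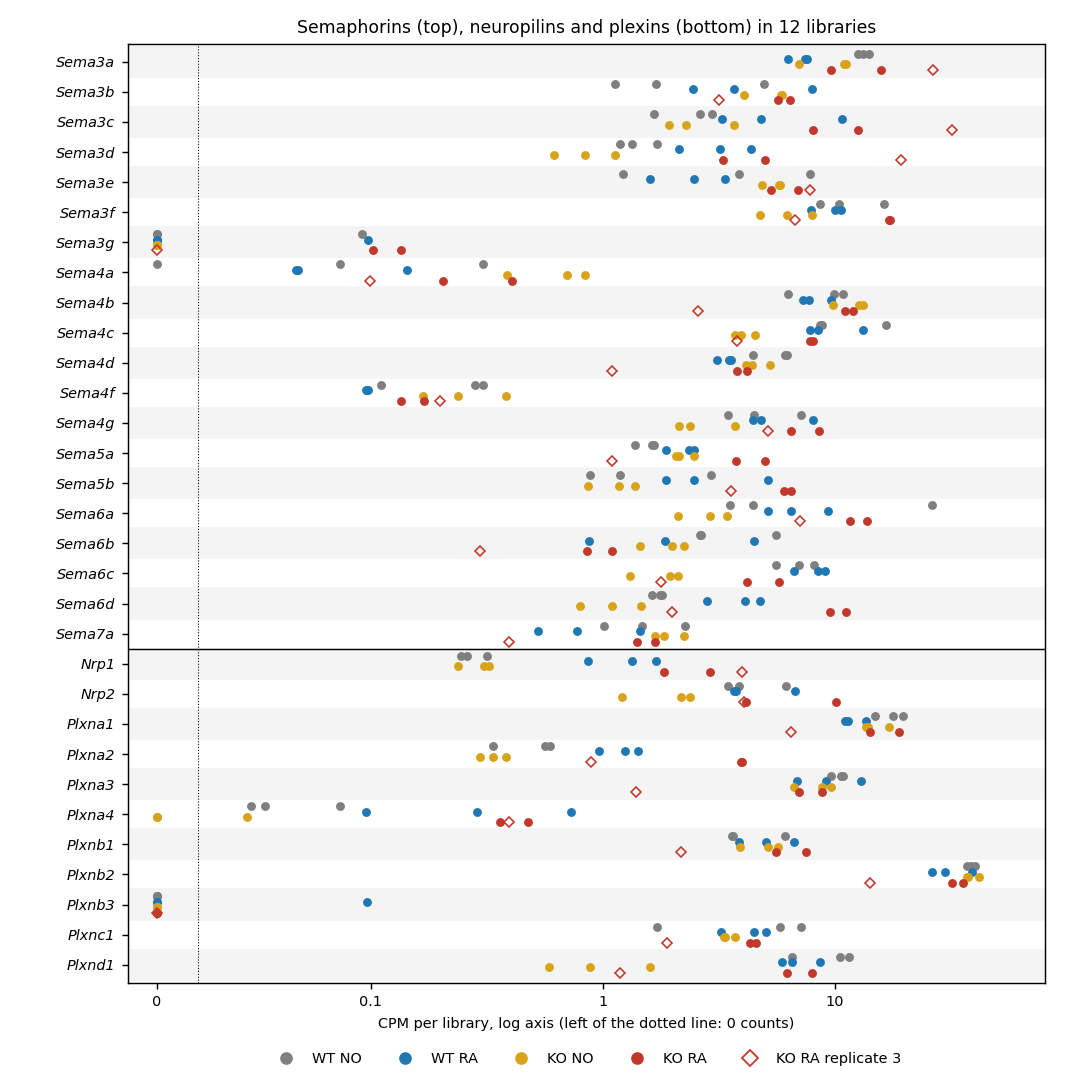
Level of each of the 31 genes in each of the 12 libraries, in CPM on a log axis, with genes in rows and groups in colours; points left of the dotted line had 0 counts. Plxnb2 has the highest mean among the receptors in every group, though its range overlaps that of Plxna1 in KO RA. After TMM scaling, replicate 3 of KO RA (open diamonds) falls far above its group for Sema3c and Sema3d and below it for most plexins.

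The 20 semaphorins summed to 95.4 ± 24 CPM in WT NO and 67.2 ± 5.02 CPM in KO NO (SD, n = 3). After induction the sums were 88.3 ± 14.1 CPM for WT RA and 127 ± 9.78 CPM for KO RA. The KO NO libraries, at 64.1, 64.6 and 73 CPM, lay below all WT NO libraries, at 79, 84.2 and 123 CPM, and the KO RA libraries, at 138, 119 and 124 CPM, lay above all KO NO libraries. The high WT NO library was replicate 3. The 9 plexins together measured 85.6 ± 1.39 CPM in WT NO and 71.6 ± 3.28 in KO NO, also without overlap, and spread from 28.5 to 85.3 CPM among the KO RA libraries. The neuropilins summed to 4.75 ± 1.42 CPM in WT NO and 2.21 ± 0.666 CPM in KO NO, with 6.02 ± 2.1 CPM in WT RA and 9 ± 3.62 CPM in KO RA, and the KO NO libraries lay below those of every other group. Class 6 semaphorins took 11.4% ± 1.21 of all semaphorin RNA in KO NO and 23.2% ± 9.21 in WT NO. These sums were not tested. In bulk RNA, fewer cells expressing a gene and less RNA of it per cell cannot be told apart.

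**Figure D2:**
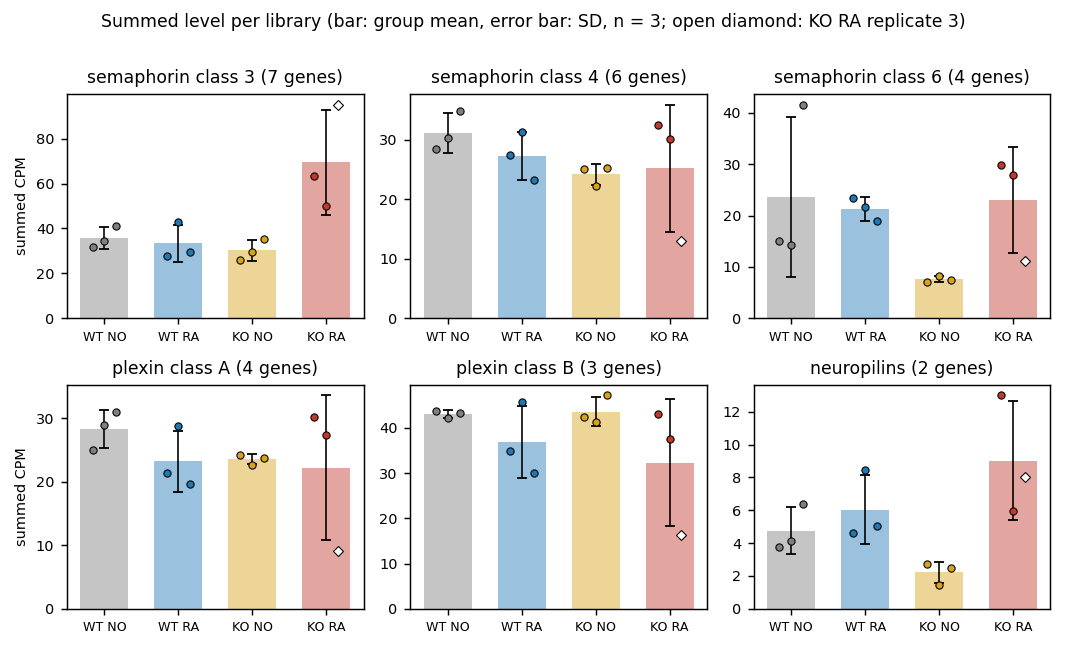
Summed CPM of 6 ligand and receptor classes in each library (points), with the group mean (bar, from 0) and SD (error bar, n = 3). Class 6 semaphorins stay between 7.12 and 8.18 CPM in the KO NO libraries, and class 3 semaphorins reach 49.8 to 95.1 CPM in the KO RA libraries against 26 to 35.2 CPM in KO NO.

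The comparison of KO NO with WT NO asks how the knockout line differed before induction. Plxnd1, the receptor of Sema3e known for patterning vessels and axon tracts, measured 10.5, 6.54 and 11.5 CPM in WT NO and 0.879, 1.6 and 0.586 CPM in KO NO. The groups did not overlap, and Plxnd1 was lower in KO NO (log2 fold change -3.22 ± 0.60 SE, quasi-likelihood test of edgeR, p adjusted after Benjamini and Hochberg = 0.0303). Sema6c, a transmembrane class 6 semaphorin of neurons and muscle, measured 7.01, 5.58 and 8.15 CPM in WT NO and 2.11, 1.95 and 1.31 CPM in KO NO. It too was lower without overlap (log2 fold change -1.95 ± 0.39, edgeR adjusted p = 0.038). These were 2 of the 28 genes tested, where 0.351% of all genes tested were called lower, and 7 were lower at an unadjusted p under 0.05, where 6.37% of all genes were. None was called higher by edgeR, against 0.788% of all genes, with 1 at an unadjusted p under 0.05 (5.81% of all genes), none by DESeq2 (2.81% of all genes), and Sema3b and Sema4a by limma-voom (10.9%). DESeq2 called 4 lower (2.68% of all genes), as did limma-voom (10.8%).

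Without replicate 3 of KO RA, Plxnd1 (log2 fold change -3.21, edgeR adjusted p = 0.00111) and Sema6c (-1.94, 0.00211) were again lower, and Sema4c joined them, where 4.35% of all genes were called lower (4.43% higher). Sema4c, a class 4 ligand of Plxnb2, measured 8.59, 8.76 and 16.5 CPM in WT NO and 3.72, 3.94 and 4.52 CPM in KO NO. Sema4c shares 1091 exonic bases with D430040D24Rik, a noncoding gene on the opposite strand, and strand-specific counting is not stated in the sources used here. Its groups did not overlap, and its log2 fold change was -1.47 ± 0.36 with an edgeR adjusted p of 0.0909 in all libraries and 0.0133 without that library. The calls of Plxnd1 and Sema6c were lost when any WT NO, WT RA or KO NO library was left out, with log2 fold changes of -3.69 to -2.94 and -2.09 to -1.76 over all such fits and adjusted p up to 0.151 and 0.161.

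Over the 28 genes the median was -0.48 on the log2 scale in this comparison, against -0.02 over all genes tested. The WT NO and KO NO libraries did not overlap for 14 of them. KO NO was lower for 12 (15.2% of all genes) and higher for 2 (15.5% of all genes). The 12 include Plxna4, which was at or under the floor in all these libraries. It had 1 count in both WT NO replicate 3 and KO NO replicate 1, so its separation carries no information. Beside Plxnd1, Sema6c and Sema4c, the lower ones included the receptor Nrp2 at 3.45, 3.84 and 6.13 CPM in WT NO and 2.37, 1.21 and 2.18 CPM in KO NO (log2 fold change -1.22 ± 0.45, edgeR adjusted p = 0.284). Its ligand Sema3f went from 10.4, 8.61 and 16.2 CPM to 4.75, 6.22 and 7.98 CPM (-0.89 ± 0.37, edgeR adjusted p = 0.356). Neither difference passed the test, nor did those of Sema3a (-0.46 ± 0.33), Sema3d (-0.71 ± 0.60), Sema6d (-0.63 ± 0.52) and Plxna3 (-0.30 ± 0.48), whose edgeR adjusted p-values were 0.676, 0.761, 0.753 and 0.918. Sema6a was also without overlap (-2.02 ± 0.67, edgeR adjusted p = 0.215), but its log2 fold change was -0.50 (adjusted p = 0.636) without WT NO replicate 3, the library with 26.1 CPM.

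Sema6b, a class 6 ligand, measured 2.64, 2.62 and 5.55 CPM in WT NO and 1.44, 1.98 and 2.23 CPM in KO NO (log2 fold change -0.94 ± 0.60, edgeR adjusted p = 0.617). It lies on chromosome 17, where the median of the 794 genes tested was -0.47 on the log2 scale in the same comparison. Chromosome 6, which carries Plxnd1, had a median of -0.15, and chromosome 3, which carries Sema6c, one of 0.10. The genes without overlap that were higher in KO NO were Sema5a, a class 5 transmembrane guidance protein (1.62, 1.66 and 1.37 CPM against 2.46, 2.13 and 2.07 CPM, log2 fold change 0.52 ± 0.45, edgeR adjusted p = 0.774) and Sema4a. Sema4a measured 0, 0.0739 and 0.305 CPM in WT NO and 0.703, 0.385 and 0.838 CPM in KO NO and did not pass the test (2.28 ± 1.02, edgeR adjusted p = 0.398). Plxna4 was at or under the floor in all libraries of both untreated groups, with 1, 2 and 1 counts in WT NO and 1, 0 and 0 counts in KO NO, and no fold is given.

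With Plxnd1 low in KO NO, the ratio of Sema3e to Plxnd1 differed between the untreated groups, from 0.106 to 1.19 in the WT NO libraries and from 3.02 to 9.86 in the KO NO libraries. Sema3e itself measured 3.84, 7.8 and 1.22 CPM in WT NO and 5.71, 4.83 and 5.78 CPM in KO NO, with overlapping groups (edgeR adjusted p = 0.909). The ratio of Sema4c to Plxnb2 was 0.214 to 0.446 in WT NO and 0.0999 to 0.109 in KO NO, with Plxnb2 at 37.2, 37.4 and 41.5 CPM in KO NO, close to its WT NO level. Of 13 ratios computed, 6 did not overlap between the untreated groups. The others were higher in KO NO for Sema4a to Plxnd1 (0 to 0.0266 in WT NO, 0.241 to 1.43 in KO NO) and Sema5a to Plxna1 (0.0696 to 0.109, 0.144 to 0.157), and lower for Sema6d to Plxna1 (0.0896 to 0.121, 0.059 to 0.0858) and Nrp2 to Nrp1 (10.9 to 25.1, 5.12 to 7.36). Ratios are descriptions of the levels and were not tested. No share without overlap was computed for other gene pairs, so the count has no background. The ratios of Sema3e and Sema4a to Plxnd1 share a denominator. Sema4a had 0 and 2 counts in replicates 1 and 2 of WT NO.

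The comparison of WT RA with WT NO shows the response of unedited cells to induction. Nrp1, the receptor of Sema3a and of vascular endothelial growth factor, measured 0.317, 0.259 and 0.244 CPM in WT NO and 0.865, 1.7 and 1.34 CPM in WT RA. All WT RA libraries exceeded all WT NO libraries, and the difference narrowly missed the threshold in all libraries (log2 fold change 2.23 ± 0.45, edgeR adjusted p = 0.0704). With 7 to 11 estimated counts in each untreated library, Nrp1 could pass the low-count filter only through RA libraries, where it was higher. edgeR called none of the 28 genes, against 0.321% of all genes called higher and 0.0848% called lower. At an unadjusted p under 0.05, 5 were higher (6.76% of all genes) and 1 was lower (5.79%). DESeq2 called Nrp1 higher (2.56% of all genes) and none lower (1.97%), and limma-voom called 5 genes higher and 3 lower (10.8% of all genes in each direction). The groups did not overlap for 7 genes that were higher in WT RA (15.1% of all genes) and 3 that were lower (14% of all genes).

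Without replicate 3 of KO RA, which is not part of this comparison, edgeR called 3 genes higher, against 5.65% of all genes, and 2 lower, against 5.13%. Nrp1 was higher (log2 fold change 2.24, adjusted p = 0.0127), as was Plxna2, a class A signalling receptor that measured 0.563, 0.591 and 0.336 CPM in WT NO and 0.961, 1.41 and 1.24 CPM in WT RA (1.28, edgeR adjusted p = 0.0469). Sema6d, a transmembrane ligand of Plxna1, was the third, with 1.8, 1.63 and 1.77 CPM in WT NO and 4.09, 4.75 and 2.82 CPM in WT RA (1.17, edgeR adjusted p = 0.0248). Sema3a was lower in WT RA at 7.6, 6.3 and 7.45 CPM, where WT NO had 12.6 to 14 CPM (-0.90, edgeR adjusted p = 0.0303). Sema4d, a ligand of Plxnb1 that shares 1766 exonic bases with Secisbp2 on the opposite strand and whose counts may hold some of that gene's, was lower as well, with 6.2, 6.1 and 4.43 CPM in WT NO and 3.56, 3.49 and 3.11 CPM in WT RA (-0.71, edgeR adjusted p = 0.0472). In the fit of all libraries the adjusted p-values of Plxna2, Sema6d, Sema3a and Sema4d were 0.357, 0.384, 0.281 and 0.511.

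The other genes of WT RA without overlap did not pass the test in either fit. They were Sema3c (1.66, 2.62 and 2.96 CPM in WT NO, 3.27, 10.7 and 4.78 CPM in WT RA, log2 fold change 1.37 ± 0.56, edgeR adjusted p = 0.34), Sema3d (1.34, 1.18 and 1.71 CPM against 2.12, 4.36 and 3.2 CPM, 1.19 ± 0.59, 0.451), Sema5a (0.52 ± 0.45, 0.719), Plxna1 (-0.54 ± 0.32, 0.555) and Plxna4. Plxna4, a partner of neuropilins in sensory and cortical axons, had 0.288, 0.727 and 0.0955 CPM in WT RA, with WT NO at the floor (edgeR adjusted p = 0.253). With Nrp1 higher and Sema3a lower, the ratio of Sema3a to Nrp1 was 41.8 to 57.4 in WT NO and 3.71 to 8.78 in WT RA, and the ratio of Nrp2 to Nrp1 was 10.9 to 25.1 and 2.75 to 4.33. These were among 5 of the 13 ratios without overlap between WT NO and WT RA, a count that again has no background. Both have Nrp1 as the denominator.

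The comparison of KO RA with KO NO shows the response of the knockout line, and it held most of the calls. edgeR called 8 of the 28 genes higher, against 3.89% of all genes, and none lower, against 1.59%. At an unadjusted p under 0.05, 14 were higher (15.8% of all genes) and none lower (9.42%), and neither DESeq2 (4.98%) nor limma-voom (12.3%) called any lower. DESeq2 called 13 higher (9.14% of all genes) and limma-voom 15 (15.1%). The receptors called were Nrp1, Plxna2, Plxna4 and Plxnd1, and the ligands were Sema3c, Sema3d, Sema5b and Sema6d. Plxna4 was at or under the floor in both untreated groups and could pass the low-count filter only through RA libraries, where it was higher. With no filter beyond 1 count in any library, edgeR did not call it. The median log2 fold change was 0.76 for the 28 genes and 0.11 for all genes tested, and 0.96 and -0.02 without replicate 3 of KO RA. The groups did not overlap for 10 genes that were higher in KO RA (13.2% of all genes) and 3 that were lower (17% of all genes), namely Plxnb2 (log2 fold change -0.50 ± 0.30, adjusted p = 0.311), Sema6b (-1.27 ± 0.62, 0.223) and Sema7a (-0.69 ± 0.55, 0.448).

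Among the receptors, Nrp1 measured 0.322, 0.237 and 0.307 CPM in KO NO and 2.89, 1.84 and 3.96 CPM in KO RA. It rose by 3.30 ± 0.46 on the log2 scale (edgeR adjusted p = 0.00391), and by 3.00 (adjusted p = 0.00255) without replicate 3 of KO RA. That replicate had the highest CPM of KO RA only through its TMM factor of 0.394. Before scaling it had the fewest estimated counts of Nrp1, 40 against 64 and 54, in the largest KO RA library. Nrp1 was the gene whose call held when each of the 12 libraries was left out in turn and under every other alternative run, with adjusted p-values up to 0.0362. It could pass the low-count filter only through RA libraries, where it was higher. With no filter beyond 1 count in any library, edgeR called it as well. Plxna2 measured 0.381, 0.296 and 0.335 CPM in KO NO and 3.97, 3.92 and 0.892 CPM in KO RA (log2 fold change 3.11 ± 0.56, edgeR adjusted p = 0.0114). Here replicate 3 was the lowest of KO RA but still above KO NO, and without it the value was 3.52 (adjusted p = 0.000613). Plxna2 shares 2650 exonic bases with Gm6403, a noncoding gene on the opposite strand, and strand-specific counting is not stated in the sources used here, so its counts are uncertain to that extent. The same holds for other genes called by edgeR with or without replicate 3. Among them are Sema5a (631 bases, Snhg18), Sema6d (427, Gm75765), Nrp2 (383, Gm29083), Nrp1 (294, Gm64234) and Plxna4 (110, Plxna4os3).

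Plxnd1, low in KO NO, measured 7.94, 6.2 and 1.19 CPM in KO RA. Replicates 1 and 2 of KO RA lay within the WT RA range of 5.91 to 8.63 CPM, and replicate 3 lay within the KO NO range. The increase over KO NO was 2.34 ± 0.59 on the log2 scale (edgeR adjusted p = 0.0439) and 2.78 (0.00154) without replicate 3. The call was lost without any one library of WT RA, KO NO, replicates 1 or 2 of WT NO or replicates 1 or 2 of KO RA, with adjusted p up to 0.167. Plxna4 had 1, 0 and 0 estimated counts in the KO NO libraries and 0.361, 0.477 and 0.396 CPM in KO RA (edgeR adjusted p = 0.0336). No fold is given, since the deposited values behave as scaled estimates rather than counts of reads. Nrp2 measured 2.37, 1.21 and 2.18 CPM in KO NO and 10.1, 4.12 and 4.06 CPM in KO RA without overlap (1.67 ± 0.46, edgeR adjusted p = 0.0582) and passed the test without replicate 3 (1.87, 0.019).

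Among the ligands, Sema3c, which guides cortical axons and cells of the cardiac outflow tract, measured 1.93, 2.28 and 3.66 CPM in KO NO and 12.5, 8.07 and 31.8 CPM in KO RA. All KO RA libraries were above KO NO (log2 fold change 2.72 ± 0.58, edgeR adjusted p = 0.0229), and the value was 1.95 (0.0191) without replicate 3, the highest after TMM scaling. Replicate 3 had 321 estimated counts of Sema3c in a library of 25660576, and replicate 1 had 276 in one of 17370069. The first rank of replicate 3 thus rests on its TMM factor. Sema3d, another secreted class 3 ligand, measured 0.615, 1.13 and 0.838 CPM in KO NO and 4.97, 3.3 and 19.3 CPM in KO RA. Its log2 fold change of 3.40 ± 0.63 (edgeR adjusted p = 0.0131) became 2.25 (0.00455) without replicate 3, so that library carried much of the size but not the call. Sema3a, Sema3c, Sema3d and Sema3e lie on chromosome 5 within an interval from 12433124 to 17935648 (GRCm39), and Sema3e measured 5.71, 4.83 and 5.78 CPM in KO NO and 6.95, 5.28 and 7.83 CPM in KO RA (0.29 ± 0.52, edgeR adjusted p = 0.749, and 0.16 without replicate 3).

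Sema6d and Sema5b are membrane-bound. Sema6d measured 1.46, 0.8 and 1.09 CPM in KO NO and 9.52, 11.1 and 1.98 CPM in KO RA (log2 fold change 2.76 ± 0.54, edgeR adjusted p = 0.0158, and 3.19, 0.00022, without replicate 3). Sema5b, a class 5 guidance protein, measured 1.17, 0.859 and 1.37 CPM in KO NO and 6, 6.47 and 3.57 CPM in KO RA (2.24 ± 0.53, edgeR adjusted p = 0.0362, and 2.45, 0.0125). Replicate 3 was thus the lowest KO RA library for both, whereas after TMM scaling it was the highest for Sema3c and Sema3d. The calls of Plxna2, Sema3c, Sema3d and Sema6d were lost without any 1 KO NO library, with adjusted p up to 0.126, and that of Sema5b was lost without 8 of the 12 libraries, KO RA replicates 1 and 2, all KO NO libraries, WT NO replicate 2 and WT RA replicates 1 and 3, with adjusted p up to 0.147. The call of Plxna4 was lost without 9 libraries, all but WT NO replicate 3, WT RA replicate 3 and KO RA replicate 3, with adjusted p up to 0.147.

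**Figure D3:**
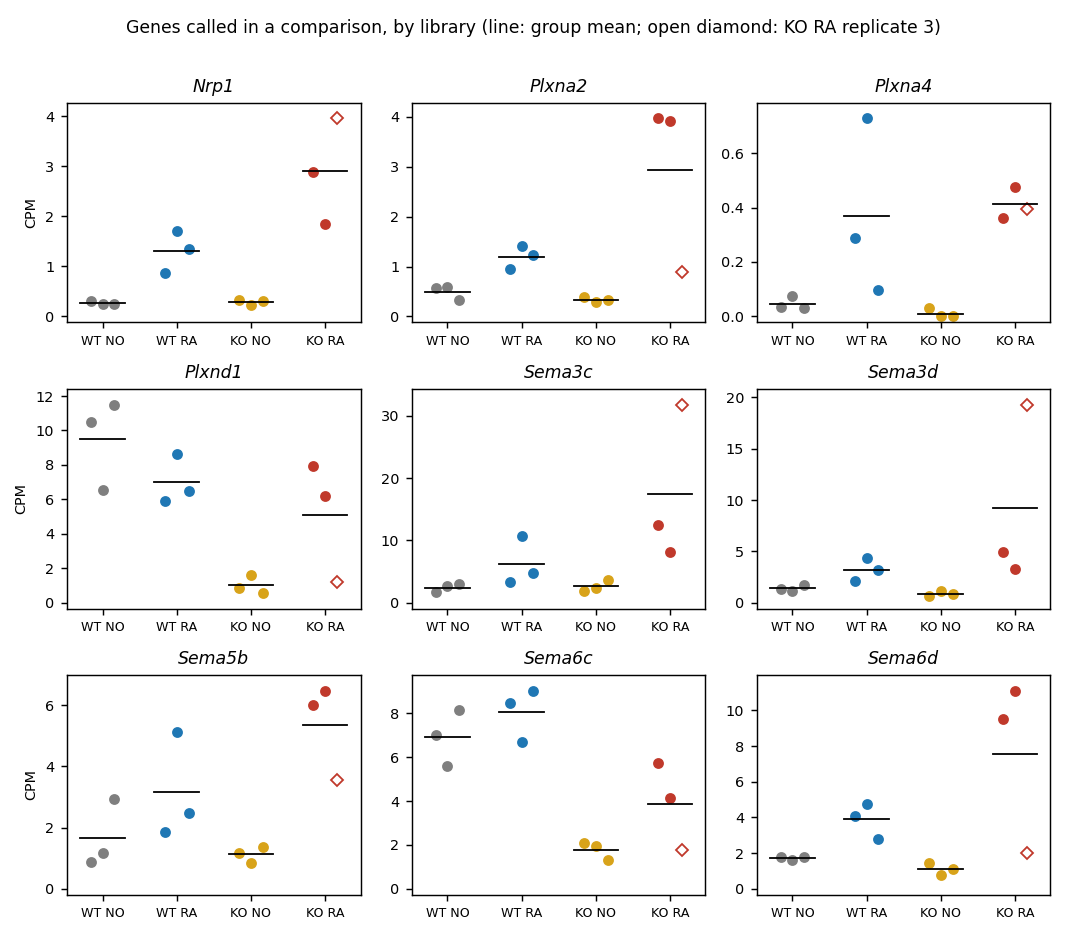
CPM in each library for the 9 genes called in a comparison of all 12 libraries, 1 panel a gene with its own axis, and a line at each group mean. Plxnd1 and Sema6c are low in KO NO. Replicate 3 of KO RA (open diamond) is the highest KO RA library for Nrp1, Sema3c and Sema3d and the lowest for Plxna2, Plxnd1, Sema5b, Sema6c and Sema6d. For Nrp1 and Sema3c its first rank rests on its TMM factor of 0.394.

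Without replicate 3 of KO RA, edgeR called 13 genes higher in KO RA than in KO NO, against 8.48% of all genes, and none lower, against 7.54%. The 8 above were among them. The groups then did not overlap for 16 genes that were higher in KO RA (27.4% of all genes) and 3 that were lower (28.3%). The other 5 were Nrp2, Sema3f (4.75, 6.22 and 7.98 CPM in KO NO, 17.2 and 17 CPM in replicates 1 and 2 of KO RA, log2 fold change 1.43, adjusted p = 0.00789), Sema4g (2.37, 3.7 and 2.12 CPM against 8.53 and 6.47 CPM, 1.44, 0.0258), Sema5a (0.97, 0.0332) and Sema6c (1.45, 0.00624). In all libraries their edgeR adjusted p-values ran from 0.0582 for Nrp2 to 0.431 for Sema5a. Sema4g shares 1181 exonic bases with Mrpl43 on the opposite strand, and its counts may hold some of that gene's. Sema6a, with 2.11, 3.44 and 2.88 CPM in KO NO and 13.7, 11.6 and 7.04 CPM in KO RA, did not overlap and did not pass in either fit (1.94 ± 0.67, edgeR adjusted p = 0.114, and 2.16, 0.0625).

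Sequence upstream of the starts of the genes called was read from GRCm39, 250 bases before the start of the representative transcript of each gene in the GENCODE annotation. Plxnd1, the receptor that was low in KO NO, and the 3 ligands Sema3c, Sema3d and Sema5b were all called higher in KO RA than in KO NO. The 4 windows shown are those of these genes, all without an annotated exon. They are printed 5′ to 3′ on the strand of the gene. Capitals mark matches on either strand to GGGCGG (the GC box), CCAAT or its complement ATTGG, or AGGTCA (the letters bound by nuclear receptors such as those of retinoic acid); the marked matches do not overlap each other. The Plxnd1 window is chr6:115972287-115972536 (minus strand), that of Sema3c chr5:17778969-17779218 (plus strand), that of Sema3d chr5:12432874-12433123 (plus strand) and that of Sema5b chr16:35361234-35361483 (plus strand).
Plxnd1: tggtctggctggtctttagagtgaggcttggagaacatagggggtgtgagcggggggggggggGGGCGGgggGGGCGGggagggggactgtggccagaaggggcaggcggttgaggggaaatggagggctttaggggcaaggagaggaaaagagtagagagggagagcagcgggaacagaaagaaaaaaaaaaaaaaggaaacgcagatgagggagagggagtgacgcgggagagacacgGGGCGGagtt
Sema3c: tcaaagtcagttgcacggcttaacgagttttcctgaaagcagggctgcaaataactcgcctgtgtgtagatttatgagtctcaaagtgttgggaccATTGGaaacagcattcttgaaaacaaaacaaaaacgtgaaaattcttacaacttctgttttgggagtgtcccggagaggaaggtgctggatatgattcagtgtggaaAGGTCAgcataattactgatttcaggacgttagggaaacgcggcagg
Sema3d: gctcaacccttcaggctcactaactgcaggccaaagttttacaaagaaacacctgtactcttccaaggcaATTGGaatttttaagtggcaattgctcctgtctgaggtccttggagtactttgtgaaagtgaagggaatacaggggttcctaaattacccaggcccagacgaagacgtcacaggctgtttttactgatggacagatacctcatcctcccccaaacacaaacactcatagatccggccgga
Sema5b: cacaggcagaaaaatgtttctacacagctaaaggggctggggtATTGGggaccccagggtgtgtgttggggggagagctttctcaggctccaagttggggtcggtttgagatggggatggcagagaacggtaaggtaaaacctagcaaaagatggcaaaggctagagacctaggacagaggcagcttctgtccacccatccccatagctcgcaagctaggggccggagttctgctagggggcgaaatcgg

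The Plxnd1 window held GGGCGG at 3 places and had a GC content of 60.8%. Those of Sema3c (43.6%), Sema3d (47.2%) and Sema5b (55.6%) held none of it and 1 CCAAT match each. The window of Plxna4, also called higher in KO RA and without an annotated exon, is not shown. It held GGGCGG and had a GC content of 76%. Nrp1, Plxna2 and Sema6d, called higher as well, had GGGCGG in their windows. Of all 31 genes, 23 had GGGCGG in the window, against 36.4% of the 21664 windows of protein-coding genes, and 6 had CCAAT, against 36.5%. AGGTCA was found for Nrp1, Sema3b, Sema3c, Sema3f and Sema5a, 5 of 31 against 13.1% of all windows, and TATAAA for Sema3a, 1 of 31 against 11.9%. CACGTG, TGATGCAA and ACGTGG, searched on both strands as well, were in 6.28%, 0.891% and 7.56% of all windows and in none of the 31. A match describes letters in the window and no binding.

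The comparison of KO RA with WT RA asks how the induced lines differed. edgeR called none of the 28 genes in all libraries, against 0.885% of all genes called higher and 0.358% called lower. At an unadjusted p under 0.05, 6 were higher (10.9% of all genes) and 2 lower (6.67%). DESeq2 called Sema3a higher (4.45% of all genes) and none lower (2.41%), and limma-voom called 6 genes higher (9.79%) and 1 lower (8.31%). The groups did not overlap for Nrp1, Sema3a and Sema3e, higher in KO RA (3 of 28, against 9.97% of all genes), and for Sema6c, lower (1 of 28, against 10.9%). Sema3a measured 7.6, 6.3 and 7.45 CPM in WT RA and 15.8, 9.61 and 26.3 CPM in KO RA (log2 fold change 1.27 ± 0.33, adjusted p = 0.0933, and 0.83, 0.0573, without replicate 3), and passed without replicate 2 of KO RA (adjusted p = 0.0335). Sema3e measured 1.59, 3.35 and 2.48 CPM in WT RA and 6.95, 5.28 and 7.83 CPM in KO RA (1.43 ± 0.54, edgeR adjusted p = 0.217, and 1.30, 0.176, without replicate 3). Nrp1 had a log2 fold change of 1.14 ± 0.43 (edgeR adjusted p = 0.214, and 0.85, 0.249, without replicate 3), and Sema6c, at 8.46, 6.69 and 9.03 CPM in WT RA and 5.73, 4.16 and 1.78 CPM in KO RA, had one of -1.03 ± 0.38 (0.21, and -0.71, 0.129, without replicate 3). The median over the 28 genes was 0.30, against 0.09 for all genes, and 0.47 against 0.01 without replicate 3.

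Without replicate 3, edgeR called Plxna2 (log2 fold change 1.70, adjusted p = 0.0208), Sema5a (0.96, 0.0471) and Sema6d (1.40, 0.0163) higher in KO RA and none lower, where 4.42% of all genes were called higher and 5.44% lower. The groups then did not overlap for 13 genes that were higher in KO RA (25.7% of all genes) and 1 that was lower (22.2%), where all libraries had 3 and 1. Plxna2 then measured 3.97 and 3.92 CPM in KO RA against 0.961 to 1.41 CPM in WT RA, and Sema6d 9.52 and 11.1 CPM against 2.82 to 4.75 CPM. Sema3c had a log2 fold change of 1.47 in all libraries and 0.71 without replicate 3, Sema3d had one of 1.50 in all libraries (edgeR adjusted p = 0.231) and 0.35 without it, and the KO RA and WT RA libraries overlapped for both genes. Plxnd1 measured 5.11 ± 3.51 CPM in KO RA and 7.01 ± 1.43 CPM in WT RA (-0.43 ± 0.55, edgeR adjusted p = 0.725), and its log2 fold change was 0.00 without replicate 3.

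The difference between the responses of KO and WT cells was tested directly, as the RA response in KO minus that in WT. edgeR called none of the 28 genes and none of the 16502 genes, a background of 0% in all libraries. At an unadjusted p under 0.05, 8 of the 28 genes had a larger log2 response in KO and none a smaller one, against 5.53% and 3.09% of all genes. DESeq2 called Plxnd1 (1.07% of all genes), and limma-voom called Plxna2, Plxnd1, Sema3f and Sema6d (3.56%), all with a larger response in KO, and neither called one with a smaller response (0.459% and 2.41% of all genes). Without replicate 3 of KO RA, edgeR called Plxnd1 (difference 3.22 on the log2 scale, adjusted p = 0.0234) and Sema6d (2.02, 0.0425), and none with a smaller response, against 0.802% and 0.537% of all genes. In all libraries the differences of these were 2.78 ± 0.80 (0.385) and 1.60 ± 0.72 (0.579). Plxnd1 had measured 9.52 ± 2.62 CPM in WT NO and 7.01 ± 1.43 CPM in WT RA and 1.02 ± 0.521 CPM in KO NO. The 5 comparisons share groups with each other, and their values are not separate evidence.

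**Figure D4:**
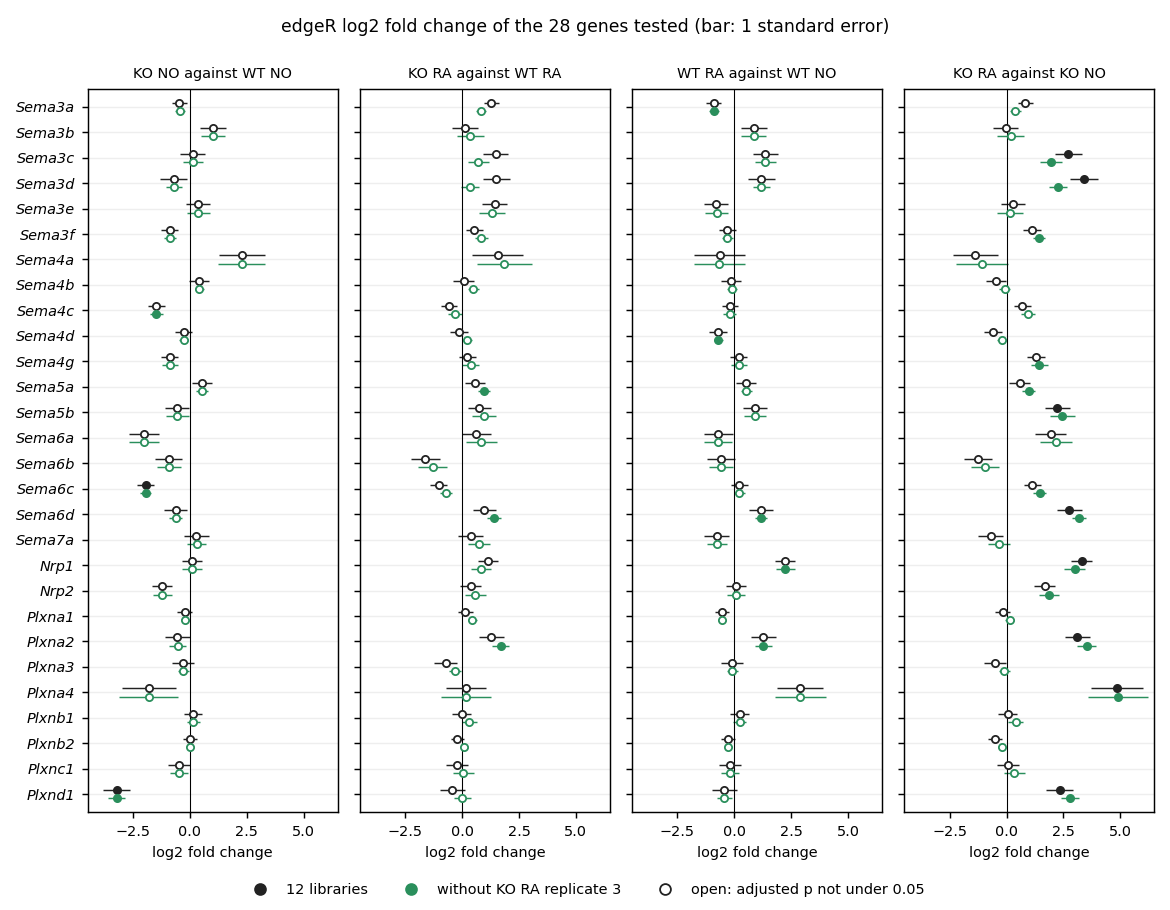
Log2 fold change of each of the 28 genes tested in 4 comparisons, with 1 standard error, in all 12 libraries (black) and without replicate 3 of KO RA (green); filled points had an edgeR adjusted p under 0.05. Filled black points number 2 for KO NO against WT NO, 0 for KO RA against WT RA and for WT RA against WT NO, and 8 for KO RA against KO NO, and the green values of Sema3c and Sema3d lie closer to 0 than the black ones in the last.

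Genes around the ligands and receptors were read from lists of co-receptors, plexin effectors, processing proteases and vascular endothelial growth factors. In KO RA against KO NO, 4 of 27 plexin effectors were higher and none lower, against 3.89% and 1.59% of all genes. They were Dpysl2 (log2 fold change 1.46, edgeR adjusted p = 0.0406), Dpysl3 (2.15, 0.0344) and Dpysl4 (2.97, 0.0116), of the collapsin response mediator family that binds tubulin downstream of Sema3a, and Mical2 (2.75, 0.0217), an oxidase that disassembles actin filaments. The median of the 27 was -0.02, against 0.11 for all genes. Of 9 co-receptors tested, Kdr, a receptor of vascular endothelial growth factor that pairs with Nrp1, was higher (4.45, edgeR adjusted p = 0.0253), as was the protease Pcsk5 of 7 proteases (2.46, 0.0152). None of the 5 growth factors was called, and edgeR called none of these lists' genes in the other comparisons of all 12 libraries. Without replicate 3, 7 effectors were higher and 2 lower in KO RA against KO NO (8.48% and 7.54% of all genes), none higher and 4 lower in KO NO against WT NO (4.43% and 4.35%), 3 higher and 1 lower in WT RA against WT NO (5.65% and 5.13%), 3 higher and none lower in KO RA against WT RA (4.42% and 5.44%), and 2 had a larger and none a smaller response in KO (0.802% and 0.537%).

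Lists of cell type markers were read as well, some with calls in the RA comparisons and some without. They are given with the number called by edgeR in KO RA against KO NO in all libraries. In that comparison 3.89% of all genes were called higher and 1.59% lower. The 7 endothelial markers summed to 4.56 to 11.1 CPM in the KO RA libraries, 1.18 to 1.98 in KO NO, 1.26 to 1.68 in WT RA and 0.282 to 0.946 in WT NO. Cdh5 and Erg were among those at 0 in both untreated groups, and none was at 0 in KO RA. Of the 3 tested, 2 were higher, Tek and Emcn. Emcn averaged 0 CPM in KO NO and 1.27 CPM in KO RA. It could pass the low-count filter only through KO RA, so its call is no separate support. The 7 mesenchymal markers summed to 86.3 to 210 CPM in KO RA and 33.8 to 42.6 in KO NO. Their sum was 81.8 to 89.9 CPM in WT RA and 23 to 55.1 in WT NO. Of the 7, 5 were higher in KO RA than in KO NO. Among them were Col3a1 (log2 fold change 6.42, edgeR adjusted p = 0.000294) and Prrx1 (6.15, 0.000168). Another was Col1a1, which was at or under the floor in KO NO and low in WT NO (mean 0.27 CPM). Col1a1 could pass the low-count filter only with RA libraries, where it was higher, so its call is no separate support. The 8 neural progenitor markers summed to 788 to 967 CPM in KO RA, 379 to 427 in KO NO, 545 to 733 in WT RA and 475 to 503 in WT NO. The 10 neuron markers summed to 157 to 227 CPM in KO RA, 119 to 124 in KO NO, 159 to 190 in WT RA and 92.7 to 156 in WT NO. In KO RA against KO NO, 5 of 8 and 2 of 10 were higher, and none of either was at 0 in any group. Vim was the largest part of the progenitor sum in KO RA, at a mean of 542 CPM against 130 in KO NO. Otx2 went the other way (68.6 and 152 CPM), as did the neuron markers Nefl (13.7 and 39.1 CPM) and Rbfox3 (0.445 and 1.62 CPM). For these 3 genes the groups did not overlap, and edgeR did not call them in all libraries. Of 6 haematopoietic markers, Csf1r and Cx3cr1 were at 0 in KO RA, with a summed level of 2.18 to 5.62 CPM there and 2.37 to 3.05 in KO NO. The 5 astroglial markers summed to 8.78 to 18.6 CPM in all libraries, with S100b at or under the floor in every group, and the 6 oligodendrocyte markers to 1.98 to 22.5 CPM in KO RA and 2.07 to 2.84 in KO NO, with 1 of 2 tested higher. Of 7 retinoic acid targets tested, 4 were higher and 1 lower, with summed levels of 87.4 to 120 CPM in KO RA, 25.9 to 31.1 in KO NO, 46.2 to 92.3 in WT RA and 33 to 76.1 in WT NO. None of 3 pluripotency markers tested was called, with a sum of 1060 to 1240 CPM in KO RA and 1420 to 1700 in KO NO and with Zfp42 at or under the floor in every group. Nrp1, Kdr, Plxnd1 and Sema3c are also expressed by endothelial or mesenchymal cells, and the part of these cells in the values above was not tested.

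The 3 genes below the filter were low in every group. Plxnb3, a plexin of oligodendrocytes, had 0 counts in 11 libraries and 2 counts in WT RA replicate 1. Sema3g, a class 3 ligand of vessels, had 0 to 3 counts in every library. Sema4f, a class 4 ligand of the postsynaptic density, measured 0.233 ± 0.106 and 0.262 ± 0.109 CPM in WT NO and KO NO and 0.0962 ± 0.000726 and 0.168 ± 0.0315 CPM in WT RA and KO RA, with 2 counts in each WT RA library, 8, 3 and 10 in WT NO and 13, 8 and 6 in KO NO. The genes not described above, Sema3b, Sema4b, Plxnb1 and Plxnc1, overlapped between the groups in all 4 comparisons of all libraries, with Plxnb1, the Sema4d receptor, at group means between 4.44 CPM in WT NO and 5.2 CPM in WT RA. Without replicate 3 of KO RA, Sema4b no longer overlapped and was above WT RA (log2 fold change 0.48, edgeR adjusted p = 0.231), and Plxnc1 was above KO NO (0.35, 0.661).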

How the data were processed

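Bulk mRNA-Seq was analysed in 12 libraries, 3 in each of WT NO, WT RA, KO NO and KO RA. The authors processed reads with the nf-core RNA-Seq pipeline, aligned them with STAR to GRCm39, quantified them with Salmon and deposited 1 table of estimated counts per gene. Its values behave as if corrected for transcript length: in 3851 genes above 0 in 1 library, value and exonic length had a Spearman correlation of -0.685, a description across genes. DESeq2 and GRCm39 are named in the submitters' processing notes.

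The estimated counts were rounded. Genes passing filterByExpr (16502) were fitted in edgeR 4.0.16 (R 4.3.3) with TMM scaling, 1 coefficient per group and robust quasi-likelihood tests, with calls where p, adjusted after Benjamini and Hochberg over all genes tested, was under 0.05. The common dispersion was 0.215 with 8 residual degrees of freedom. SE is the size of the log2 fold change divided by the square root of F. CPM used no pseudocount. The fit was also run on simulated counts with a smaller dispersion than these data, no outlying library and changes only in well-counted genes. That run checks the code and does not bear on the calls reported here. Depth was 17370069 to 30738717 counts; the floor of 3 estimated counts covers counting error only and does not stand for 3 reads, and p-values measure the spread between passages.

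All members are named; full statistics are given for those called or, in a comparison, without overlap between groups, and from the pathway lists for those called (at most 5 a list and comparison). Members and lists (co-receptors, effectors, proteases, growth factors and cell type markers) were chosen with earlier results of these data known. Alternatives were DESeq2 1.42.0, DESeq2 size factors in edgeR, no filter, limma-voom (limma 3.58.1) with quality weights, a replicate block, only the groups compared, leaving out each library and, added after seeing the data, library totals without TMM. Sequences came from GRCm39 with GENCODE gene models. Figures used matplotlib 3.10.9.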

Additional observations from a re-analysis of the deposited data

Results flagged for a closer look

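Sema3a stood out because the genotype comparison pointed in opposite directions by treatment, with all 3 libraries on one side of the other 3 each time. Its log2 fold change was -0.46 for KO NO against WT NO (edgeR adjusted p = 0.676) and 1.27 for KO RA against WT RA (edgeR adjusted p = 0.0933). The difference between them was 1.73 ± 0.47 (unadjusted p = 0.0033, edgeR adjusted p = 0.35) in all 12 libraries and 1.28 (edgeR adjusted p = 0.0791) without replicate 3 of KO RA. In that library Sema3a had its highest level after TMM scaling, 26.3 CPM. Before scaling it had 265 estimated counts of Sema3a there, against 350 and 282 in replicates 1 and 2 of KO RA.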

How the results depend on the processing

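Counts of the 28 genes called moved with the tool, the scaling and the samples fitted. DESeq2 called 4 in KO NO against WT NO, 1 in KO RA against WT RA, 1 in WT RA against WT NO, 13 in KO RA against KO NO and 1 for the difference of the responses, where edgeR called 2, 0, 0, 8 and 0, and limma-voom with quality weights called 6, 7, 8, 15 and 4. With only the groups compared, WT RA against WT NO had 1 and KO RA against KO NO had 1. Library totals without TMM, which moved the median of all genes from -0.01 to -0.26 in WT RA against WT NO and from 0.11 to -0.17 in KO RA against KO NO, left 0 in KO NO against WT NO and 2 in KO RA against KO NO. Leaving out 1 library gave 0 to 3, 0 to 3, 0 to 5, 1 to 13 and 0 to 2 calls in the same order, the highest each time without replicate 3 of KO RA. DESeq2 size factors and no filter gave counts within 1.5 times of these. None of the 42 log2 fold changes recomputed, of genes called or without overlap between groups, changed sign; others were not recomputed. Why the counts moved was not tested; fits without a library or with fewer groups also hold fewer samples.

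Replicate numbers did not pair the samples: none of 18 same-numbered pairs deviated together with a correlation over 0.1 (-0.167 to 0.0677). The replicate block left 0 calls in KO NO against WT NO and 5 in KO RA against KO NO.

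Without TMM factors, the summed level was 77.7 CPM for semaphorins in KO NO, 94.7 for plexins in WT NO and 82.8 for plexins in KO NO.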
